A study of Mus musculus with 10 samples.

Results

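Kitl, Kit, Cxcl12, Cxcr4 and Ackr3 encode the ligands and receptors of the KIT and CXCL12 signals, both known to support germ cells in the fetal gonad. They were chosen by gene symbol in the deposited count table, where 5 of 24470 gene entries matched, 1 for each symbol. To ask whether glycogen breakdown is needed in the differentiating testis, 1 gonad of each of 5 male C57BL/6 embryos was cultured from E12.5 for 48 h with GPI (CP316819, an inhibitor of glycogen phosphorylase) at 75 µM, and the other gonad with the vehicle, DMSO. The mesonephros was cut away after culture, and RNA of the whole gonad was sequenced, 1 library for each of the 10 testes. The vehicle group and the GPI group therefore held 5 testes each, of the same strain, age and culture time, paired by embryo. No allele was altered in either group according to the sources used here. The inhibitor was given to the whole organ and may also have acted on cells other than Sertoli cells. The groups are therefore no model of blocked glycogen breakdown in Sertoli cells alone.

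KIT is a receptor tyrosine kinase of migrating and gonadal germ cells, and its ligand, made by somatic cells in a membrane-bound and a soluble form, supports their survival, division and movement. CXCL12 is a chemokine of stromal cells that guides germ cells and vessel cells through the G protein-coupled receptor CXCR4. ACKR3 also binds CXCL12, but takes it up and removes it without G protein signalling, and so is known as a scavenger receptor.

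The libraries held 10203679 to 15590223 counts with vehicle (median 11114376) and 11025409 to 15635322 with GPI (median 11691690). Levels are given as scaled counts, which are counts divided by the library's TMM-corrected total and multiplied by the mean of these totals over the 10 libraries. Testis markers were present with vehicle, at a mean of 1231 scaled counts for the Sertoli cell gene Sox9 and 240.3 for the germ cell gene Ddx4, and the pre-granulosa gene Foxl2 stood at 30.6. Wnt4, Rspo1, Fst and Irx3, also counted as pre-granulosa genes here, had means of 1044, 415, 101 and 3.42 with vehicle. In build mm10, Kitl (Entrez Gene 17311) lies at chr10:100015824-100100412 on the plus strand and Kit (Entrez Gene 16590) at chr5:75574987-75656722 on the plus strand. Cxcl12 (Entrez Gene 20315) lies at chr6:117168535-117181368 on the plus strand. Cxcr4 (Entrez Gene 12767) at chr1:128588199-128592299 on the minus strand and Ackr3 (Entrez Gene 12778) at chr1:90203980-90215724 on the plus strand share a chromosome but are far apart. None of the 5 genes overlaps another entry of the table, so counting without regard to strand did not mix any of them with a neighbour listed there.

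Promoters of Cxcl12, Cxcr4 and Ackr3 are shown because these 3 genes differed between treatments. Each window holds 250 bases before and 50 bases after the annotated start, 5′ to 3′ on the gene's own strand, from RefSeq with build GRCm38.p6, and capitals mark GGGCGG and TATAAA on either strand. The Cxcl12 window is chr6:117168285-117168584, the Cxcr4 window chr1:128592250-128592549 on the minus strand, and the Ackr3 window chr1:90203730-90204029.
Cxcl12: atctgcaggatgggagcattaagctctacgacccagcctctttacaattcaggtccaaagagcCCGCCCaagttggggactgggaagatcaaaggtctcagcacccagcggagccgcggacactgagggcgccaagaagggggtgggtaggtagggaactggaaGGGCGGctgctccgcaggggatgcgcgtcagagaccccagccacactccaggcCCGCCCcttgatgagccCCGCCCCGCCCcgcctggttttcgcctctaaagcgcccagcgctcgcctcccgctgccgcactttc
Cxcr4: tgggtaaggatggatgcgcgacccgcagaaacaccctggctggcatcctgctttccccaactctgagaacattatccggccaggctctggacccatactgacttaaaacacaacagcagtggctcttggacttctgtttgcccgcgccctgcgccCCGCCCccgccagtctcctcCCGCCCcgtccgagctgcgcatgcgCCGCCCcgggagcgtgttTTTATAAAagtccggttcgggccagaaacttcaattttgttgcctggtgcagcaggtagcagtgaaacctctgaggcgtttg
Ackr3: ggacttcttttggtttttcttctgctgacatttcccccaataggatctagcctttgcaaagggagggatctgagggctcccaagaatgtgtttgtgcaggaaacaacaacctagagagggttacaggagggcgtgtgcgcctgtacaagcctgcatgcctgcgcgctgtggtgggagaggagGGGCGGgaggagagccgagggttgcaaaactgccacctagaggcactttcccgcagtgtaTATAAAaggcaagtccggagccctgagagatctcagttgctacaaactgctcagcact
All 5 genes had a promoter in the reference table. Their windows held from 54.0% (Ackr3) to 69.0% (Kit) G and C, against a median of 52.7% over all promoters. The GC box, counted next, is made of these letters alone. GGGCGG, the GC box, was in the promoters of 5 of 5 genes, against 35.7% of the 32851 promoters of that length, with 5 matches in Cxcl12, 3 in Cxcr4, 3 in Kitl and 1 in each of Ackr3 and Kit. TATAAA, the TATA box, was in 3 of 5 genes, Kitl, Cxcr4 and Ackr3, against 13.6% of all promoters. In Cxcr4 it occurred on both strands in overlapping letters. The letters AGGAAG, bound by ETS factors, were found for Kit alone of the 5 (35.4% of all promoters held them), and the hypoxia element core ACGTG for 0 of 5 (19.6%). These matches describe the letters in the windows. Their bearing on the counts was not tested.

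GPI and vehicle were compared by edgeR's quasi-likelihood test with the mouse as a block, over 13941 genes, with Benjamini-Hochberg adjustment over all of them and a threshold of 0.05. Of the 5 genes, 3 passed, 1 higher and 2 lower with GPI, and the same 3 had groups that did not overlap. Over all tested genes, 22.9% passed (11.1% higher and 11.9% lower), and 16.1% had groups that did not overlap (7.10% higher and 9.02% lower). The shares that passed are also the ones to set beside the edgeR counts of each gene list below. With 5 members chosen while results were known, the share of 3 in 5 is a description and not a property shown for the signals.

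**Figure D1:**
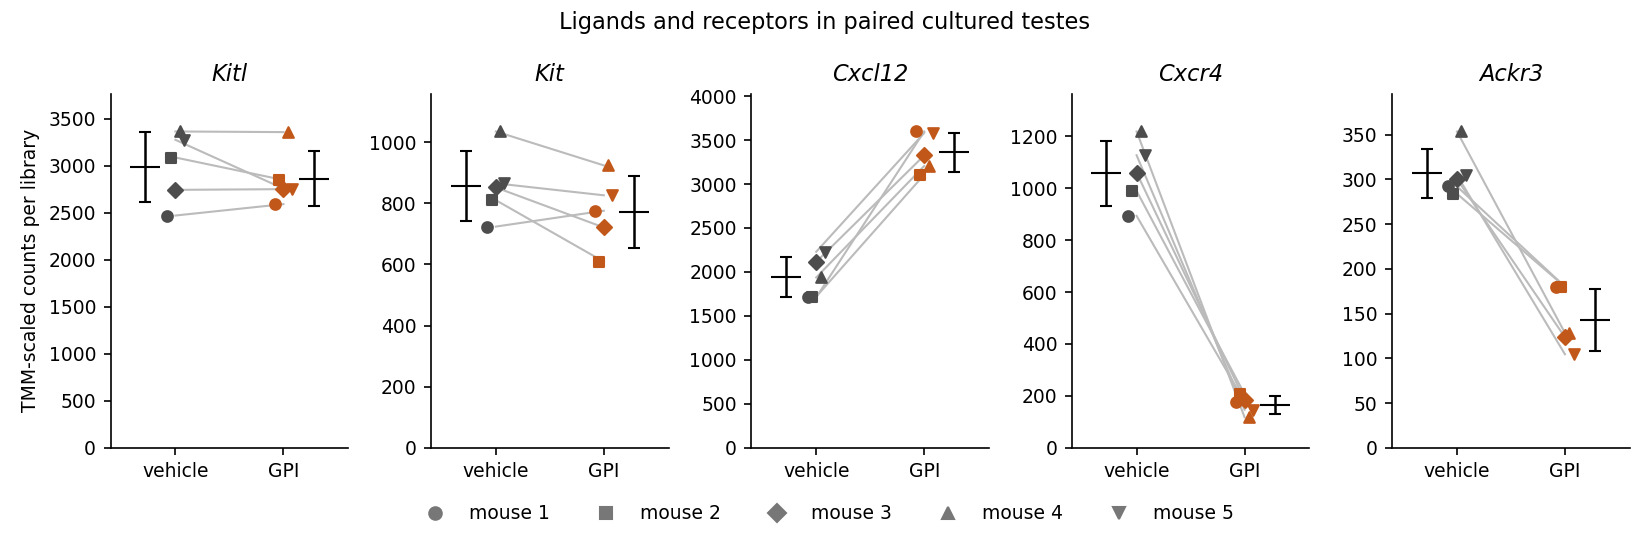
TMM-scaled counts (y axis, from 0) of the 5 genes in vehicle-treated and GPI-treated testes; symbols are mice, grey lines join the gonads of a mouse, and black bars are the mean ± SD of 5 testes. Cxcl12 lies higher with GPI in each mouse (1711 to 2229.6 against 3106 to 3597), Cxcr4 and Ackr3 lie lower in each mouse, and the groups of Kitl and Kit overlap.

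The ligand Kitl did not pass the test. Vehicle-treated testes of mice 1 to 5 had 2470.2, 3087, 2743, 3364 and 3275 scaled counts of Kitl, and the GPI-treated testes of the same mice 2591, 2848, 2751, 3357 and 2756. The groups overlapped over most of their range, mouse 4 was highest and mouse 1 lowest under each treatment, and mouse 5 showed the clearest drop. Mean ± SD of the 5 testes was 2988 ± 375 scaled counts under vehicle and 2861 ± 292 under GPI. Its log2 fold change in edgeR's quasi-likelihood test was -0.06 (standard error 0.07, adjusted p = 0.604), lower in 3 of 5 mice. The 95% confidence interval placed the level with GPI between 86.4% and 106% of that with vehicle, so a loss of the ligand's RNA as large as those of the CXCL12 receptors lies outside it.

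The receptor Kit did not pass the test either. Kit stood at 724, 810.2, 852, 1035 and 865 scaled counts in the vehicle-treated testes of mice 1 to 5, and at 776, 609, 721, 924 and 826 in their GPI-treated testes. The groups overlapped: mouse 4 was again highest under each treatment, mouse 1 was the mouse with more Kit under GPI, and mouse 2 had the lowest value with GPI. Kit averaged 857 ± 114 scaled counts across the vehicle-treated testes and 771 ± 118 across the GPI-treated testes (mean ± SD, n = 5 each). Within mice, the difference in log2 scaled counts averaged -0.16 ± 0.19 (SD, n = 5 mice). For Kit, edgeR's quasi-likelihood test put the log2 fold change at -0.16 (standard error 0.09, adjusted p = 0.243), with lower counts in 4 of 5 mice. The level with GPI was 89.7% of that with vehicle (95% confidence interval 78.5% to 102%).

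Germ cell markers moved far more than Kit. Of 20 germ cell genes, 12 had enough counts to be tested, of which 11 were called lower and 0 higher under GPI by edgeR's quasi-likelihood test (11 lower and 0 higher at an unadjusted p under 0.05 and by limma-voom). DESeq2, which also tested genes of lower count, called 14 of the 20 lower and 0 higher. Their summed level was 1901, 3432, 2349, 3116 and 1422 scaled counts in the vehicle-treated testes of mice 1 to 5 and 374, 326, 145, 127 and 295 in the GPI-treated testes. Every GPI sum was below every vehicle sum, and the mean sum with GPI was 10.4% of that with vehicle. Dazl, an RNA-binding protein gene of germ cells, was the most abundant of the 20 under vehicle, with a mean of 580.1 scaled counts with vehicle and 25.1 with GPI, where Prdm1 led at 96.3. Fthl17a was at 0 in all 10 libraries. The log2 fold changes of the first genes of the list were -2.72 for Ddx4, -4.62 for Dazl and -5.20 for Dppa3, while Pou5f1 had too few counts to be tested. In bulk RNA, fewer cells of a type and less RNA per cell cannot be told apart.

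Among other cells that can carry KIT, mast cells and melanocytes were sparse by their markers. Mast cell genes summed to 72.6 to 161 scaled counts with vehicle and 40.9 to 81.1 with GPI. With vehicle most of the sum was Gata2, which blood and vessel cells also express. Hdc of the same list had means of 36.9 scaled counts with vehicle and 26.8 with GPI, where Gata2 had 26.5. Of the defining mast cell genes, Fcer1a was at 0 in all 10 libraries and Tpsb2 and Ms4a2 at 0 in the 5 GPI libraries, while Cpa3 and Mcpt4 had means of 4.80 and 0.15 scaled counts with vehicle. Melanocyte genes summed to 29.9, 79.9, 22.3, 21.9 and 30.5 in the vehicle-treated testes of mice 1 to 5 and 17.9, 53.5, 57.1, 74.7 and 71.9 in the GPI-treated testes, lower in mice 1 and 2 and higher in the other 3. Tyr and Tyrp1 were at 0 in all 10 libraries, Sox10 was the most abundant, and Dct, too low to be tested by edgeR, had means of 5.14 with vehicle and 21.7 with GPI, higher in 4 of 5 mice. Of these lists, 2 of 8 mast cell genes were tested (1 lower, Gata2) and 1 of 6 melanocyte genes (Sox10, adjusted p = 0.708 in edgeR's quasi-likelihood test). Of the melanocyte list, 0 genes were called by edgeR, by limma-voom or at an unadjusted p under 0.05, and DESeq2 called 1 of the 6 higher. Fetal Leydig cell genes, by contrast, were high and higher still with GPI: 7 of 8 were tested, and 6 were higher and 0 lower by edgeR (6 and 0 at an unadjusted p under 0.05, 6 and 0 by DESeq2 and by limma-voom). Blood progenitor genes, given further below, had a mean sum of 1058 scaled counts with vehicle and 256 with GPI. Cd34, also an endothelial gene, gave 552 of that vehicle sum. Which cells the Kit counts came from was not tested.

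The ligand Cxcl12 was the member that rose. Cxcl12 was at 1711, 1719, 2114, 1937 and 2229.6 scaled counts in the vehicle-treated testes of mice 1 to 5, and at 3597, 3106, 3325, 3204 and 3580.4 in the GPI-treated testes. The lowest GPI value, of mouse 2, was well above the highest vehicle value, of mouse 5, and the spread was smaller with GPI than with vehicle. The 5 vehicle-treated testes averaged 1942 ± 232 scaled counts of Cxcl12 (mean ± SD) and the 5 GPI-treated testes 3363 ± 221. In edgeR's quasi-likelihood test the log2 fold change was 0.80 (adjusted p = 5.14e-06, standard error 0.08): the level was 1.74-fold that with vehicle (95% confidence interval 1.55 to 1.95) and higher in 5 of 5 mice. Mouse 1 had the largest difference, 1.07 on the log2 scale, and the other mice lay between 0.65 and 0.85. Of the 13941 tested genes, 635 had a higher log2 fold change than Cxcl12.

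Markers of somatic cells that could make CXCL12 did not move as 1 group. Interstitial progenitor genes summed to 23332, 24426, 23981, 20586 and 22397 scaled counts in the vehicle-treated testes of mice 1 to 5 and to 22068, 24639.6, 22182, 19960.0 and 25202 with GPI. Those groups overlapped, and the mean sum with GPI was 99.4% of that with vehicle. Of 10 interstitial progenitor genes, 9 were tested, and 2 were higher and 4 lower, with a log2 fold change of 0.33 for Pdgfra, the most abundant, and -0.30 for Tcf21. The number called lower was 4 by limma-voom, 3 by DESeq2, 2 without the mouse block and 5 with total counts alone, with 2 called higher in each. Nr2f2, at -0.18, did not pass. Sertoli cell genes summed to 3927, 6022, 4594, 5718 and 6300.4 with vehicle and to 4543, 8309, 8639.7, 10758 and 8260.4 with GPI, higher in 5 of 5 mice. The groups overlapped through mouse 1 alone, whose GPI library also stood apart from the other GPI libraries over all genes compared (chi-square per degree of freedom 21.7 to 27.8, against 7.48 to 11 among the other 4). Pairs of vehicle libraries ranged from 6.42 to 21.18 on the same measure. Of the 12 Sertoli cell genes, all tested, 8 were higher and 0 lower (8 and 0 at an unadjusted p under 0.05, by DESeq2 and by limma-voom), with Aard the most abundant. Without the mouse block 6 were called higher, and with total counts alone 7, each with 0 lower but 1 lower at an unadjusted p under 0.05. Fetal Leydig cell genes summed to 1788, 3363, 4547, 2479 and 6012 with vehicle and to 10599, 11315, 17373, 19560.1 and 14489 with GPI, with Hsd3b1 the most abundant under vehicle and Cyp11a1 under GPI. No GPI sum fell in the vehicle range. Their part in the rise of Cxcl12 was not tested.

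The receptor Cxcr4 had the largest change of the 5 genes. Cxcr4 was at 893, 989, 1059, 1218 and 1127 scaled counts in the vehicle-treated testes of mice 1 to 5, and at 178, 207, 185, 118 and 147 in the GPI-treated testes. Every GPI value was far below every vehicle value, and mouse 4, the highest with vehicle, was the lowest with GPI. Means ± SD over 5 testes were 1057 ± 125 scaled counts of Cxcr4 under vehicle and 167 ± 34.7 under GPI. By edgeR's quasi-likelihood test the log2 fold change of Cxcr4 was -2.67 (standard error 0.15, adjusted p = 3.73e-08), lower in 5 of 5 mice, so that 15.7% of the vehicle level was left (95% confidence interval 12.6% to 19.6%). Of the 13941 tested genes, 187 had a lower log2 fold change. Raw counts behind these values ran from 112 to 1479 per library, so the low GPI values do not rest on a few reads.

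The scavenger receptor Ackr3 fell less steeply. Ackr3 was at 292, 284, 300.3, 354 and 305 scaled counts in the vehicle-treated testes of mice 1 to 5, and at 180.2, 180.0, 124, 128 and 105 in the GPI-treated testes. The groups did not overlap, and mice 1 and 2 kept more Ackr3 with GPI than mice 3, 4 and 5. From 307 ± 27.3 scaled counts in vehicle-treated testes, Ackr3 fell to 143 ± 34.7 in GPI-treated testes (mean ± SD, n = 5 each). The log2 fold change in edgeR's quasi-likelihood test was -1.12 (standard error 0.15, adjusted p = 0.000129), lower in 5 of 5 mice, which left 46.0% of the vehicle level (95% confidence interval 36.5% to 58.0%). Of the 13941 tested genes, 731 had a lower log2 fold change than Ackr3.

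Endothelial markers moved with both CXCL12 receptors. All 12 endothelial genes were tested, and 12 were lower and 0 higher with GPI by edgeR's quasi-likelihood test (12 and 0 at an unadjusted p under 0.05, by DESeq2 and by limma-voom), with a median log2 fold change of -3.16 against 0.02 over all tested genes. The list summed to 10981, 11113, 10789.8, 12492 and 11199 scaled counts in the vehicle-treated testes of mice 1 to 5 and to 1516, 1664, 1140.35, 847 and 1123 in the GPI-treated testes. No GPI sum came near the vehicle sums, and their mean was 11.1% of the vehicle mean. Cdh5, the vascular cadherin, was the most abundant under vehicle, with means of 2827 scaled counts with vehicle and 232 with GPI, where Kdr led at 282, and no gene of the list was at 0 in either group. Pecam1 had a log2 fold change of -4.16, Cdh5 of -3.63, Kdr of -2.44 and Flt1 of -5.18. Mouse by mouse, the log2 ratio of the endothelial sum was -2.86, -2.74, -3.24, -3.88 and -3.32, and that of Cxcr4 was -2.31, -2.25, -2.51, -3.35 and -2.92. For each, mouse 4 had the lowest ratio, mouse 5 the next and mouse 2 the highest. Blood progenitor sums, with log2 ratios of -1.69, -1.87, -1.98, -2.77 and -2.12, also had mouse 4 lowest and mouse 5 next, while germ cell sums (-2.35, -3.40, -4.02, -4.61 and -2.27) had mouse 5 highest. Cd34, also an endothelial gene, gave a mean of 552 of the blood progenitor list's 1058 scaled counts with vehicle. Ackr3, with log2 ratios of -0.69, -0.65, -1.27, -1.45 and -1.52 for mice 1 to 5, had mouse 2 highest, as Cxcr4 had, but mouse 5 lowest. Perivascular sums (-1.75, -2.08, -2.03, -2.22 and -1.95) had mouse 4 lowest and mouse 1 highest. Macrophage sums (-1.22, -1.11, -1.06, -1.61 and -1.77) had mouse 5 lowest and mouse 3 highest.

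Markers of other cells that can carry CXCR4 moved as well. Perivascular genes were tested 8 of 8, with 7 lower and 0 higher (7 and 0 at an unadjusted p under 0.05, by DESeq2 and by limma-voom), and summed to 10586, 11619, 11401, 11278 and 10456 scaled counts with vehicle and 3139, 2755, 2791, 2428 and 2704 with GPI. Abcc9 was the most abundant of them under vehicle and Acta2 under GPI, and the log2 fold changes were -4.32 for Rgs5, -0.82 for Notch3 and -1.44 for Cspg4. Blood progenitor genes summed to 1111, 1011, 968, 1101 and 1099.95 with vehicle and to 344, 276, 245, 161 and 253 with GPI. Of these 8, 5 were tested and 3 were lower, Ptprc (-1.85), Runx1 (-1.11) and Cd34, also an endothelial gene (-3.49). Cd34 was the most abundant under vehicle and Runx1 under GPI. Gfi1b was at 0 in the 5 GPI libraries. Macrophage genes summed to 1139, 931, 941, 820 and 862 with vehicle and to 488, 430, 452, 269 and 252 with GPI, with 9 of 10 tested, 8 lower and Lyz2 the most abundant. For each of these lists the GPI sums lay below the vehicle sums. Germ cell sums, given beside Kit, moved in the same direction. The part of each cell type in the lower Cxcr4 and Ackr3 counts was not tested.

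**Figure D2:**
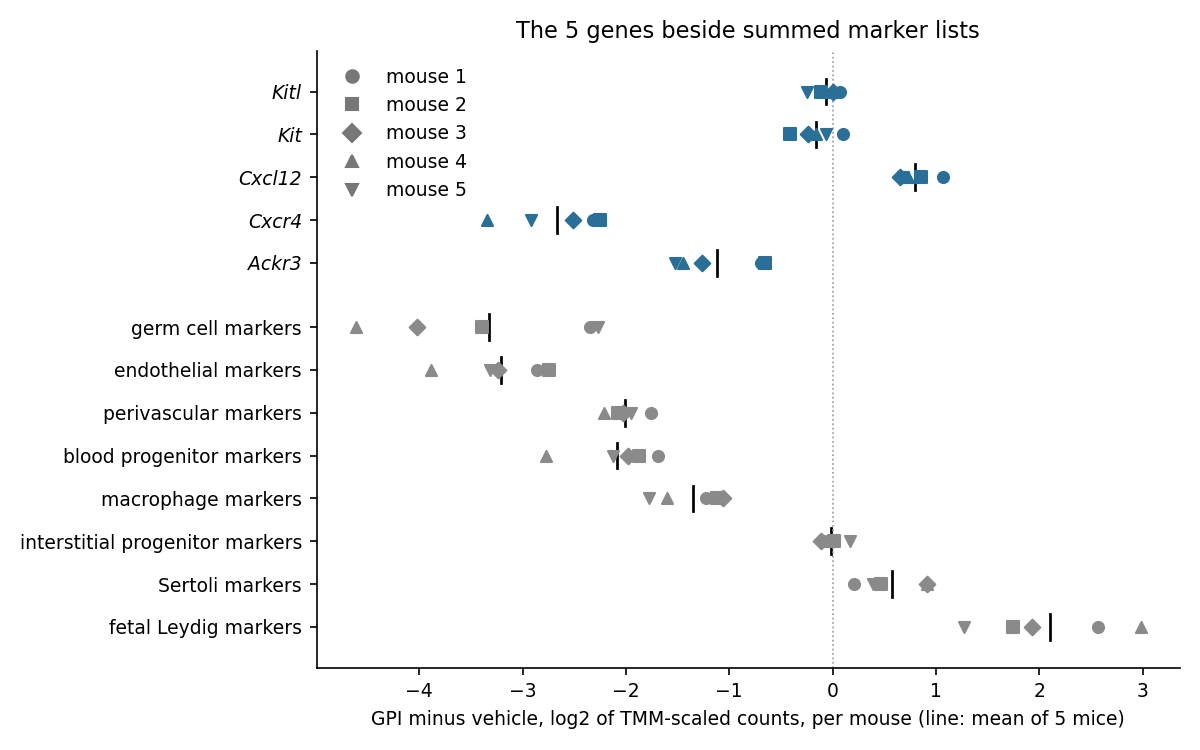
Difference between GPI and vehicle in each mouse, in log2 of TMM-scaled counts (x axis), for the 5 genes (blue) and for the summed counts of 8 marker lists (grey); symbols are mice and vertical lines the mean of 5 mice. Kitl and Kit lie around 0 with the interstitial progenitor sum, Cxcl12 to the right, and Cxcr4 (-3.35 to -2.25) to the left, with the germ cell, endothelial, perivascular, blood progenitor and macrophage sums.

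Further markers of cells that the gonad could hold were summed in the same way. Erythroid genes ran from 440.5 to 1428 scaled counts with vehicle and from 172 to 264 with GPI, with 6 of 8 tested and 6 lower (Hbb-bt the most abundant under vehicle and Alas2 under GPI). Mesonephros genes ran from 1056 to 1678 and from 724 to 1069, most of it Emx2, and 1 of 3 tested genes, Emx2, was lower. Pax2 and Lhx1, which mark mesonephric tubules, had means of 10.1 and 6.35 scaled counts with vehicle. Others of that list stood higher with vehicle: Pax8 had a mean of 178.7 (53.3 to 399.5), Gata3 of 150.5 and Cdh16 of 33.5. Coelomic epithelium genes had 0 of 4 tested genes called in either direction by edgeR, at an unadjusted p under 0.05 or by DESeq2 or limma-voom. Of 4 tested pre-granulosa genes, 1 was lower, Wnt4 (-0.78).

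Ligands and receptors were then compared within each testis. The ratio of Kitl to Kit scaled counts in mice 1 to 5 was 3.41, 3.81, 3.22, 3.25 and 3.78 with vehicle and 3.34, 4.68, 3.82, 3.63 and 3.34 with GPI. The groups overlapped, and the ratio was higher with GPI in mice 2, 3 and 4 and lower in mice 1 and 5. The log2 change of Kitl minus that of Kit was 0.10 ± 0.20 (SD, n = 5 mice), smaller than its spread with all mice but not without mouse 5 (0.17 ± 0.14). Cxcl12 over Cxcr4 was 1.92, 1.74, 1.996, 1.59 and 1.98 with vehicle and 20.2, 15.02, 18.02, 27.2 and 24.3 with GPI. Here the groups stood far apart in every mouse, and mouse 4 moved furthest. Log2 change of Cxcl12 minus that of Cxcr4 averaged 3.46 ± 0.39 (SD, n = 5 mice) and ran from 3.10 to 4.07.

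Against its scavenger, Cxcl12 shifted less. Cxcl12 over Ackr3 was 5.86, 6.05, 7.04, 5.48 and 7.32 in the vehicle-treated testes and 19.96, 17.3, 26.9, 24.96 and 34.2 in the GPI-treated testes. The lowest GPI ratio, of mouse 2, was more than the highest vehicle ratio, of mouse 5, and the difference of log2 changes was 1.91 ± 0.29 (SD, n = 5 mice). The receptors also separated from each other: Cxcr4 over Ackr3 was 3.06, 3.48, 3.53, 3.45 and 3.70 with vehicle and 0.99, 1.15, 1.49, 0.92 and 1.41 with GPI. In each mouse the signalling receptor lost more than the scavenger, by -1.55 ± 0.25 on the log2 scale (SD, n = 5 mice). These differences carry no test, since the pairs were set with results of these data known.

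**Figure D3:**
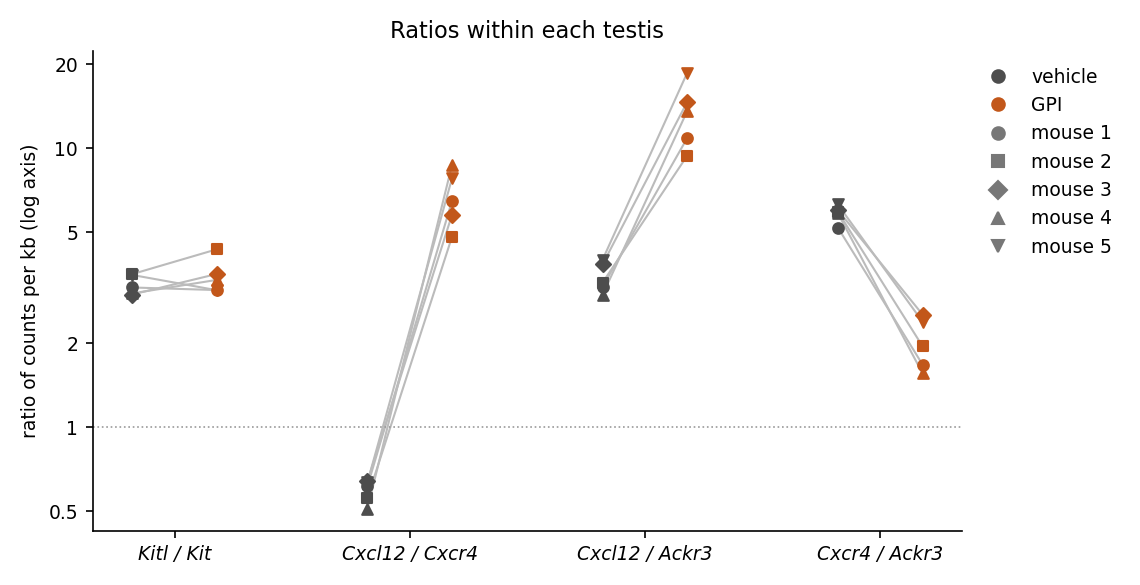
Ratios of scaled counts per kilobase of transcript within each testis (y axis, log scale) for 4 pairs of genes, vehicle to GPI, with symbols for mice and a dotted line at 1. Per kilobase of the longest transcripts, Cxcl12 over Cxcr4 crosses 1 in each mouse, from 0.51 to 0.64 with vehicle to 4.82 to 8.72 with GPI, while Kitl over Kit stays between 2.99 and 4.34.

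Levels of different genes were compared per kilobase of the longest annotated transcript, which is 5.648 kb for Kitl, 5.241 kb for Kit, 5.627 kb for Cxcl12, 1.805 kb for Cxcr4 and 3.065 kb for Ackr3; shorter isoforms would raise these values. The isoforms present are unknown, and the order of genes depends on these lengths: without division by length Cxcl12 exceeded Cxcr4 with vehicle too. With vehicle, Cxcr4 came first at 586 ± 69.1 scaled counts per kb (SD, n = 5), followed by Kitl at 529 ± 66.3. Their ranges overlapped between mice, although Cxcr4 was above Kitl in each of the 5 testes. Cxcl12 followed at 345 ± 41.2, Kit at 164 ± 21.7 and Ackr3 at 100.1 ± 8.89, and none of these 3 overlapped the gene before it. With GPI the order was Cxcl12 at 598 ± 39.2, Kitl at 506 ± 51.8, Kit at 147 ± 22.4, Cxcr4 at 92.4 ± 19.2 and Ackr3 at 46.8 ± 11.3. Cxcl12 and Kitl overlapped, and Cxcl12 was above Kitl in 4 of 5 mice, while the later neighbours did not overlap. Cxcr4 thus went from the first place to the fourth, from 3.59 ± 0.13 times the level of Kit per kb to 0.66 ± 0.23 times (SD, n = 5 testes). Cxcl12 over Cxcr4 per kb was 0.59 ± 0.06 with vehicle and 6.72 ± 1.56 with GPI.

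**Figure D4:**
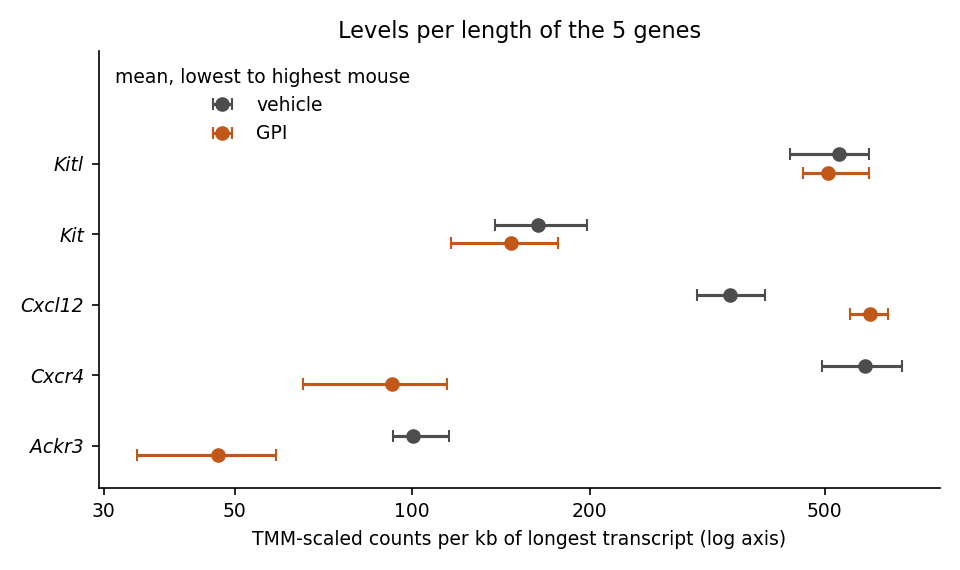
Levels of the 5 genes in TMM-scaled counts per kilobase of the longest transcript (x axis, log scale); points are means of 5 testes and bars reach from the lowest to the highest testis. With vehicle Cxcr4 (586) lies beside Kitl (529), and with GPI it lies below Kit (92.4 against 147), while Cxcl12 (598) leads.

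Genes most like each member over the 10 libraries were sought among the 11104 tested genes whose mean count reached 50, by Pearson's r of log2 scaled counts. For Cxcr4 they were Rasgrp3 (r = 0.998), Ctla2a (0.997) and Pecam1 (0.996), with log2 fold changes of -2.69, -4.54 and -4.16. The 10 points fall into the treatment groups, which by themselves give high values; after the treatment means were taken off, the same r were 0.966, 0.891 and 0.842. For Ackr3 they were Mecom (0.991), Dll4 (0.990) and Cldn5 (0.985), and 0.947, 0.968 and 0.899 after the means were taken off. Pecam1 is on the endothelial list, and Dll4 and Cldn5 are known from endothelial cells. For Cxcl12, Serpini1 (0.989), Kcnj3 (0.983) and Oxtr (0.982) came first, with log2 fold changes of 1.68, 0.92 and 2.48. Their r without the treatment means were 0.896, 0.784 and 0.778. Kitl was most like Banf1 (0.889), Lap3 (0.884) and Rnf144a (0.874), and Kit most like Stam2 (0.88), Polr2j (0.85) and Rnf144a (0.83), none of which passed the test of treatment. Among the members themselves, Cxcr4 and Ackr3 had r = 0.95, and 0.61 with the treatment means taken off. Kitl and Kit had 0.65 and 0.63. With 10 libraries and 11104 candidates, values of this size are a description.

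The intracellular part of KIT signalling was followed in 30 genes, of which 29 were tested, 1 was higher and 7 were lower with GPI, beside 22.9% of all tested genes called in either direction. Their median log2 fold change was -0.11 (0.02 over all tested genes). The 3 with the smallest p were Sh2b3, an adaptor that restrains cytokine and KIT signalling (-1.15), the SRC family kinase Lyn (-1.67) and Pik3r1, a regulatory subunit of PI3-kinase (-0.54), each lower in 5 of 5 mice. The gene called higher, named after its value was seen, was Sos1, the exchange factor for RAS (0.25, adjusted p = 0.014 in edgeR's quasi-likelihood test), which lost its call under scaling by total counts alone (0 higher and 8 lower). The list's sum ran from 27745 to 28815 scaled counts with vehicle and from 25436 to 26193 with GPI. Lyn and Sh2b3 are also known from blood and vessel cells, whose marker sums fell, and the part of those cells was not tested.

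Of 26 further genes of CXCL12 signalling, 24 were tested, and 8 were lower and 0 higher by edgeR's quasi-likelihood test (11 and 0 at an unadjusted p under 0.05, 8 and 0 by DESeq2 and by limma-voom). Beside them, 22.9% of all tested genes were called in either direction and 11.9% were lower. The median log2 fold change of the list was -0.29 (0.02 over all tested genes). Those with the smallest p were Gnai2, a subunit of the inhibitory G protein (-0.87), Arrb1, a beta-arrestin (-1.22), and Grk3, a kinase that acts on active G protein-coupled receptors (-1.08), each lower in 5 of 5 mice. Summed scaled counts of the list were lower in 5 of 5 mice, at 28315 to 31434 with vehicle and 24299 to 25778 with GPI, with Rac1, a small GTPase of cell movement, the most abundant. Several of these genes are also expressed in endothelial and blood cells, whose marker sums moved the same way, and their part was not tested.

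Other chemokines and receptors were low in these testes. Of 29 further chemokine ligand genes, 7 passed the filter, and 0 were called in either direction by edgeR (1 lower and 0 higher at an unadjusted p under 0.05, and 0 by DESeq2 and by limma-voom). Ccl2 had a log2 fold change of -1.39 (adjusted p = 0.0973), Ccl28 of -0.57 and Ccl25 of 0.31. All 29 together summed to 280.2 to 301 scaled counts with vehicle and 244 to 282 with GPI, less than Cxcl12 alone in any library, and Cxcl11, the other chemokine that ACKR3 binds, was at 0 in all 10. Of 21 further chemokine receptor genes, 7 were tested and 1 was lower, Cx3cr1 (-2.38), a macrophage receptor that the macrophage list holds too. The scavenger Ackr1 (1.15, adjusted p = 0.1) did not pass in edgeR's quasi-likelihood test. DESeq2, which tested more genes of low count, called 4 of the 21 lower.

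Receptors related to KIT and their ligands did not move together. Of 11 such genes, 9 were tested, and 3 were higher and 3 lower, beside 11.1% higher and 11.9% lower over all tested genes. Pdgfrb (-1.55), Csf1r (-2.22) and Pdgfb (-2.65) had the smallest p and were lower in 5 of 5 mice. Pdgfra, Pdgfa and Pdgfd, named after their values were seen, were higher in 5 of 5 mice, at 0.33, 0.75 and 0.48 on the log2 scale. Under total counts alone, without the block or by DESeq2, 2 and not 3 were called higher. Csf1r is also on the macrophage list, Pdgfrb on the perivascular list, Pdgfra on the interstitial list and Pdgfa on the Leydig list.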

How the data were processed

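RNA of 10 cultured mouse testes was measured (Ovation RNA-Seq V2, amplified). Read pairs were mapped to mm10 with STAR 2.5 and counted per gene with featureCounts of Subread 1.5.0-p1, without regard to strand, and the authors deposited raw counts for 24470 entries, used as deposited. Genes were filtered with filterByExpr (minimum count 10, minimum total 15), which left 13941, scaled by TMM and tested in edgeR 4.0.16 (R 4.3.3), with limma 3.58.1 and DESeq2 1.42.0 as alternatives; lists were counted in Python 3.11.15, and transcript lengths came from GENCODE M21. Log2 values used a prior count of 2. The labels name the animal of each gonad, so pairing follows from the design; deviations from the treatment mean correlated by -0.04 to 0.155 within mice (mean 0.06) and by -0.015 between mice. No libraries were duplicates. Libraries were amplified and carried no molecular identifiers, so counts do not number molecules and errors rest on differences among mice. Genes were named by rule: the members, the first 4 markers of each cell type, the 3 smallest p of each pathway or family list, and the 3 genes most like each member; some genes met by these rules are not reported here. Members, lists and motifs were chosen with earlier results of these data known. The procedure was tested on simulated data.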

Additional observations from a re-analysis of the deposited data

Results flagged for a closer look

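Of 57 groups of 5 values examined (the 5 genes, their ratios and the summed marker and pathway lists), 5 held a testis that stood apart from the other 4 by more than the usual limit for such a group. Chance alone does this in about 1 in 20 groups. None of the 5 concerned the counts of Kitl, Kit, Cxcl12, Cxcr4 or Ackr3 themselves. The endothelial sum of the vehicle-treated testis of mouse 4 was 12492 scaled counts, and the others ran from 10789.8 to 11199. Melanocyte genes summed to 79.9 in the vehicle-treated testis of mouse 2, and to at most 30.5 in the others. The KIT signalling genes summed to 27745 in the vehicle-treated testis of mouse 5, below the next value of 28552. Chemokine receptors other than the members summed to 137 in the GPI-treated testis of mouse 1, with 182 the next. The relatives of KIT summed to 8486 in the GPI-treated testis of mouse 4, with 9639.5 the next.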

How the results depend on the processing

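Each of the 5 genes kept its direction and its side of the threshold under all 12 alternatives: testing by limma-voom or by DESeq2, leaving out the replicate block, scaling by total counts alone or by the size factors of DESeq2, a filter of 10 counts per library or none, and dropping each mouse in turn. Log2 fold changes ranged from -0.11 to -0.01 for Kitl, from -0.24 to -0.09 for Kit (adjusted p 0.0897 to 0.501), from 0.71 to 0.83 for Cxcl12, from -2.78 to -2.51 for Cxcr4 and from -1.24 to -1.02 for Ackr3 (adjusted p up to 0.00127). Without the replicate block, that is without the pairing by mouse, 3108 genes were called and the log2 fold changes were -0.06 for Kitl, -0.16 for Kit, 0.79 for Cxcl12, -2.66 for Cxcr4 and -1.10 for Ackr3, and no call of these genes changed. The number of genes called ran from 2311 to 3472; genes called higher fell from 1544 to 969 without mouse 3 and to 1024 without mouse 4. With total counts alone, 1238 genes were higher and 1972 lower. Differences between ligands and receptors moved by less than their SD with a prior count of 0.5, total counts alone or any mouse left out. Kitl minus Kit ran from 0.05 without mouse 2 to 0.17 without mouse 5, where it was above its SD of 0.14. Of 29 further chemokine ligand genes, 22 had too few counts to be tested.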
